A study of Mus musculus with 2 samples.

Results

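The immediate early transcription factors described here are Fos, Fosb, Fosl2, Jun, Junb, Atf3, Egr1, Egr3, Ier2 and Nr4a1. They were taken by symbol from the feature table of a mouse single-nucleus RNA sequencing (snRNA-seq) series, and all 10 were found among its 19059 features. The tumors came from the dFLEx CDS mouse, a model of CIC::DUX4 sarcoma. In this mouse the fusion gene sits at the Rosa26 locus behind a CAG promoter and is switched on by Cre and FLPE plasmids electroporated into hind limb muscle. Tumor cells of both groups arise from cells in which the fusion was switched on, and whether other nuclei carry the switched allele was not measured. The untreated group (genotype dFLEx CDS +/- per its label) had 4 tumors. The other group had 4 tumors given Minnelide, a water-soluble prodrug of triptolide, at 0.42 mg/kg for 21 days, and its label states no genotype. The study describes the Minnelide tumors it profiled as having responded either well or poorly to the drug. The Minnelide group therefore mixes both kinds of response, and it was not split by response here. Per the study's methods the drug was injected daily into the peritoneum once a tumor could be felt, and mice of both sexes were used. The labels give no age. The comparison asks how these genes stand in each cell class and whether their levels differ after an inhibitor of transcription by RNA polymerase II.

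As background, immediate early genes are switched on within minutes of a growth factor, stress or calcium signal, without new protein synthesis, and most of their mRNAs are short-lived. Fos, Fosb and Fosl2 (which encodes Fra-2) pair with Jun or Junb to form AP-1, a leucine zipper dimer that binds DNA, and Atf3 is a related leucine zipper factor of the stress response. Egr1 and Egr3 are zinc finger factors downstream of MAP kinase signaling, Nr4a1 is an orphan nuclear receptor, and Ier2 is a nuclear protein induced with them. Fos is required for osteoclasts to form, and Fosl2 is known to act in bone cells. Triptolide binds XPB, a subunit of the general transcription factor TFIIH. Tissue handling can also induce this family.

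Upstream sequence was available for 7 of the 10 genes, as RefSeq promoter windows (table of build GRCm38.p6) whose 300-base sequences each matched GRCm39 once. Egr1, Egr3 and Ier2 were not among them. The 3 windows shown are those of a Jun gene, a Fos gene and the nuclear receptor, and each holds at least 1 of the motifs searched. Each runs 5′ to 3′ toward the RefSeq start and ends before the first annotated exon base. Capitals mark TGACG (the core of the cyclic AMP response element) on either strand, TGACNTCA on either strand, TATAAA on the sense strand and GCGNGGGCG (an EGR motif) on either strand. Fos is shown over 244 bases at chr12:85520414-85520657 on the + strand of GRCm39. Jun is shown over 250 bases at chr4:94940460-94940709 on the - strand. Nr4a1 is shown over 180 bases at chr15:101164477-101164656 on the + strand, since the last 70 bases of its window lie in an annotated exon.
Fos: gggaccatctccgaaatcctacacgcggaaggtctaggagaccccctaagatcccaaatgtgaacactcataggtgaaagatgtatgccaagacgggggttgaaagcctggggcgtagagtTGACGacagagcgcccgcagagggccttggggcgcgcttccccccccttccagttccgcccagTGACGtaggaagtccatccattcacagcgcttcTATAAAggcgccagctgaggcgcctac
Jun: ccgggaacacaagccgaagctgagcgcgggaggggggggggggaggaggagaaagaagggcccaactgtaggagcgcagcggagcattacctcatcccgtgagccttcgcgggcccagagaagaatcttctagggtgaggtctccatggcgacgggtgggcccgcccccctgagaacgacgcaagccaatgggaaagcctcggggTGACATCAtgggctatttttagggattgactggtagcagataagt
Nr4a1: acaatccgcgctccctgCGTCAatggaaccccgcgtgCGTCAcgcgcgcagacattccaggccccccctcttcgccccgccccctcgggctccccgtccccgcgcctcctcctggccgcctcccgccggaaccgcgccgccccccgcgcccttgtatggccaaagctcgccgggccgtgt
Within the 250 bases before the start, TGACG was found 4 times for Nr4a1, of which 2 lie in the part shown. Fos held it 2 times, Fosb, Junb and Atf3 1 time each, and Jun and Fosl2 0 times. Of 32851 such windows over all genes 17.8% held TGACG. TGACNTCA was found 1 time, in Jun, against 7.49% of windows. TATAAA was found 1 time, in Fos, against 7.59% of windows. GCGNGGGCG was found in Fosb, Fosl2 and Nr4a1, against 4.7% of windows. The full element TGACGTCA, whose matches also count for TGACG and TGACNTCA, was found in 0 of the 7, as were the AP-1 motif TGANTCA and the serum response element core (1.55%, 6.75% and 1.47% of windows). The motifs were chosen with the sequences in view, and a match is a match of letters only. Bases further upstream were not searched, so a count of 0 does not mean that the gene lacks such a site. The Fosl2 window lies wholly inside an annotated exon and is not shown.

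The 8 matrices held 18487409 to 73211599 UMIs. After filtering, 59907 nuclei were retained, 4470 to 10368 per tumor, and the median was 2410 to 4027 UMIs except in untreated tumor 4, where it was 875. Clustering, in which neither the members nor the marker genes were used, gave 27 clusters. Tumor-like nuclei, named from CIC::DUX4 target genes such as Etv4, made up 58.6% of nuclei, and 9 of the 11 tumor-like clusters came over 90% from 1 tumor. Myocyte-like nuclei made up 14.8%, fibroblast-like 11.6%, endothelial-like 5%, macrophage-like 2.99%, smooth muscle-like 1.45% and osteoclast-like 1.18%, and 4.4% stayed unnamed. Of the 5 myocyte-like clusters 3 came over 90% from 1 tumor, and 2 of these also had tumor markers raised. These were 9 markers in 2459 nuclei (99.4% from untreated tumor 1) and 7 in 763 nuclei (99.9% from Minnelide tumor 2). The cluster of 2459 nuclei had a median of 1009 UMIs and also had 10 endothelial, 9 fibroblast and 6 macrophage markers raised. The cluster of 763 nuclei also had 6 endothelial and 4 macrophage markers raised. Untreated tumor 1 stood apart. In its tumor-like nuclei the 10 endothelial markers summed to 3635 CPM (UMI counts scaled to a total of 1000000 per sum) against 446.4 to 869.5 in the other tumors. The 10 tumor markers there summed to 13560 CPM against 19280 to 25950, and 10 heat shock genes to 580 CPM against 293 to 365. For Jun, Junb and the pathway genes that moved by over 1.5 times without this tumor, values in tumor-like nuclei are given both ways. Tumors of the 2 groups shared 49 to 132 barcodes in each of 4 pairs, and no other pair of tumors shared any. The labels name no batch. If the groups were processed apart, batch and treatment cannot be told apart.

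Members called between classes were mostly lower in tumor-like nuclei. Against osteoclast-like nuclei 3 were called lower and 1 higher, and 5 of 10 had a negative difference whether called or not. The test across classes summed UMIs per tumor and class, kept sums of at least 50 nuclei, and used edgeR's quasi-likelihood test with the tumor as a block over 11996 genes, both treatment groups together. Each log2 difference is tumor-like minus the other class, with its standard error. Against smooth muscle-like nuclei 9 of 10 members were lower in tumor-like nuclei at an adjusted p under 0.05, where 14.3% of all genes tested were. Against fibroblast-like nuclei 6 of 10 were lower (background 21.9%), against macrophage-like 6 of 10 (18.3%), against endothelial-like 6 of 10 (20.3%), against myocyte-like 6 of 10 (25.3%) and against osteoclast-like 3 of 10 (20.5%). In the other direction 1 member, Nr4a1, was higher in tumor-like than in osteoclast-like nuclei (24.6% of all genes). The count of members higher in tumor-like nuclei was 0 against fibroblast-like (23.9%), macrophage-like (22.5%), endothelial-like (23%), smooth muscle-like (16.3%) and myocyte-like nuclei (26.4%). With a stricter naming of clusters, 2 members rather than 6 passed against endothelial-like and against myocyte-like nuclei, and few sums remained. The tumor-like sums left were those of Minnelide tumor 1 (5975 nuclei) and Minnelide tumor 3 (69 nuclei), with no untreated tumor. The calls lost were those of Jun, Egr1, Ier2 and Atf3 against endothelial-like nuclei and of Fosl2, Egr1, Atf3 and Nr4a1 against myocyte-like nuclei, all with the same sign.

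**Figure D1:**
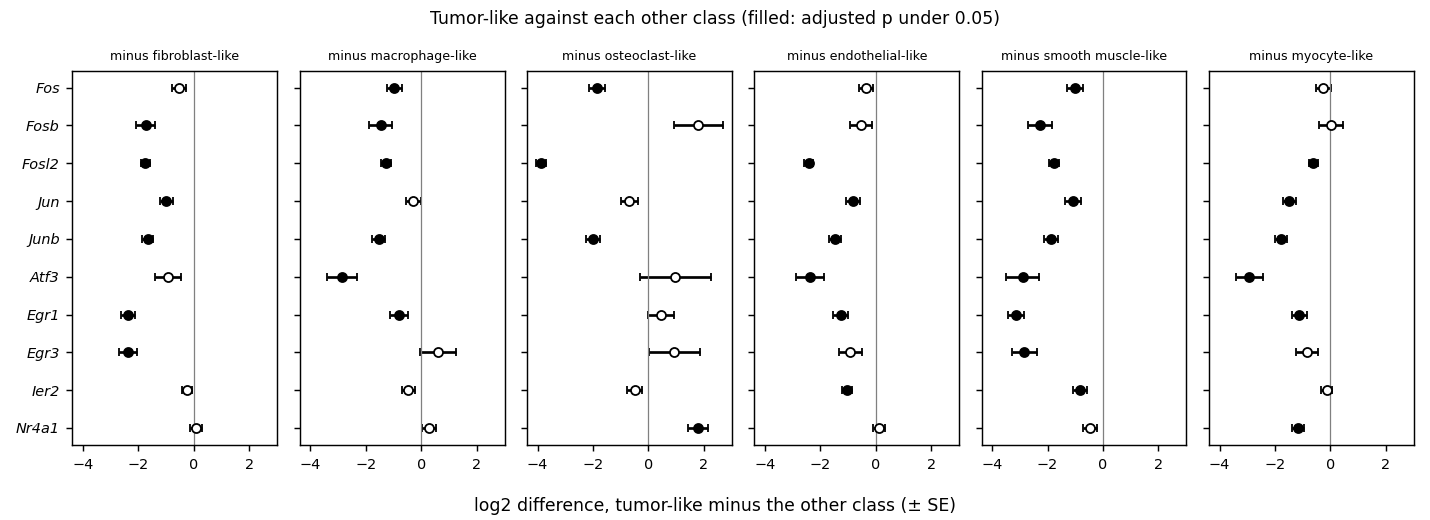
Log2 difference of each member between tumor-like nuclei and each other class (x axis, ± SE) from edgeR on UMI sums, with filled points for an adjusted p under 0.05. Fosl2 and Junb lie left of 0 and are filled in all 6 panels, and Nr4a1 is filled on the right only against osteoclast-like nuclei.

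Fosl2 (chr5:32292707-32315186, + strand of GRCm39) had its highest median in osteoclast-like nuclei. In osteoclast-like nuclei it reached 360, 353, 300 and 379 CPM in untreated tumors 1 to 4 and 229 CPM in Minnelide tumor 4, the 5 tumors with at least 50 such nuclei. Osteoclast-like nuclei were its highest class in all 5. The median over tumors was 101 CPM in endothelial-like, 62.5 in fibroblast-like, 58.4 in smooth muscle-like, 46.5 in macrophage-like, 26.3 in myocyte-like and 18.1 in tumor-like nuclei. The tumor-like level was below that of every other class, by -3.86 ± 0.18 on the log2 scale against osteoclast-like, -2.42 ± 0.16 against endothelial-like and -0.61 ± 0.17 against myocyte-like nuclei (edgeR, largest adjusted p of the 6 contrasts 0.0024). Among neighbors in this order, osteoclast-like nuclei exceeded endothelial-like by 1.44 ± 0.18 on the log2 scale (edgeR adjusted p = 5.46e-09, background 39.4%). Fibroblast-like nuclei were below endothelial-like by -0.67 ± 0.16 (edgeR adjusted p = 0.00052, background 34.6%), and macrophage-like nuclei were above myocyte-like by 0.67 ± 0.20 (edgeR adjusted p = 0.0045, background 43.5%). Fibroblast-like and smooth muscle-like nuclei differed by -0.02 ± 0.19 (edgeR adjusted p = 0.99, background 16.4%) and macrophage-like and smooth muscle-like by -0.49 ± 0.21 (edgeR adjusted p = 0.080, background 27.5%), so neither pair of neighbors passed the test.

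The other Fos genes did not follow 1 pattern. Fos itself (chr12:85520658-85524047, + strand) was also highest in osteoclast-like nuclei in 4 of 5 tumors, at 197, 196, 221 and 184 CPM in the untreated tumors and 163 CPM in Minnelide tumor 4. Its tumor-like level was lower by -1.87 ± 0.29 there (edgeR adjusted p = 9.7e-07), by -0.97 ± 0.26 against macrophage-like nuclei (edgeR adjusted p = 0.0027) and by -1.01 ± 0.29 against smooth muscle-like nuclei (edgeR adjusted p = 0.0059). The last call was lost without untreated tumor 3, at -0.65 (adjusted p = 0.11). Fosb was near the floor in osteoclast-like nuclei, with 0 UMIs in 3 of the 5 tumors, 7 in untreated tumor 3 and 1 in Minnelide tumor 4. Its medians of 45.7 CPM in smooth muscle-like and 23.6 CPM in fibroblast-like nuclei stood against 7.78 CPM in tumor-like nuclei, log2 differences of -2.28 ± 0.44 (edgeR adjusted p = 5.6e-05) and -1.73 ± 0.34 (edgeR adjusted p = 4.7e-05).

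**Figure D2:**
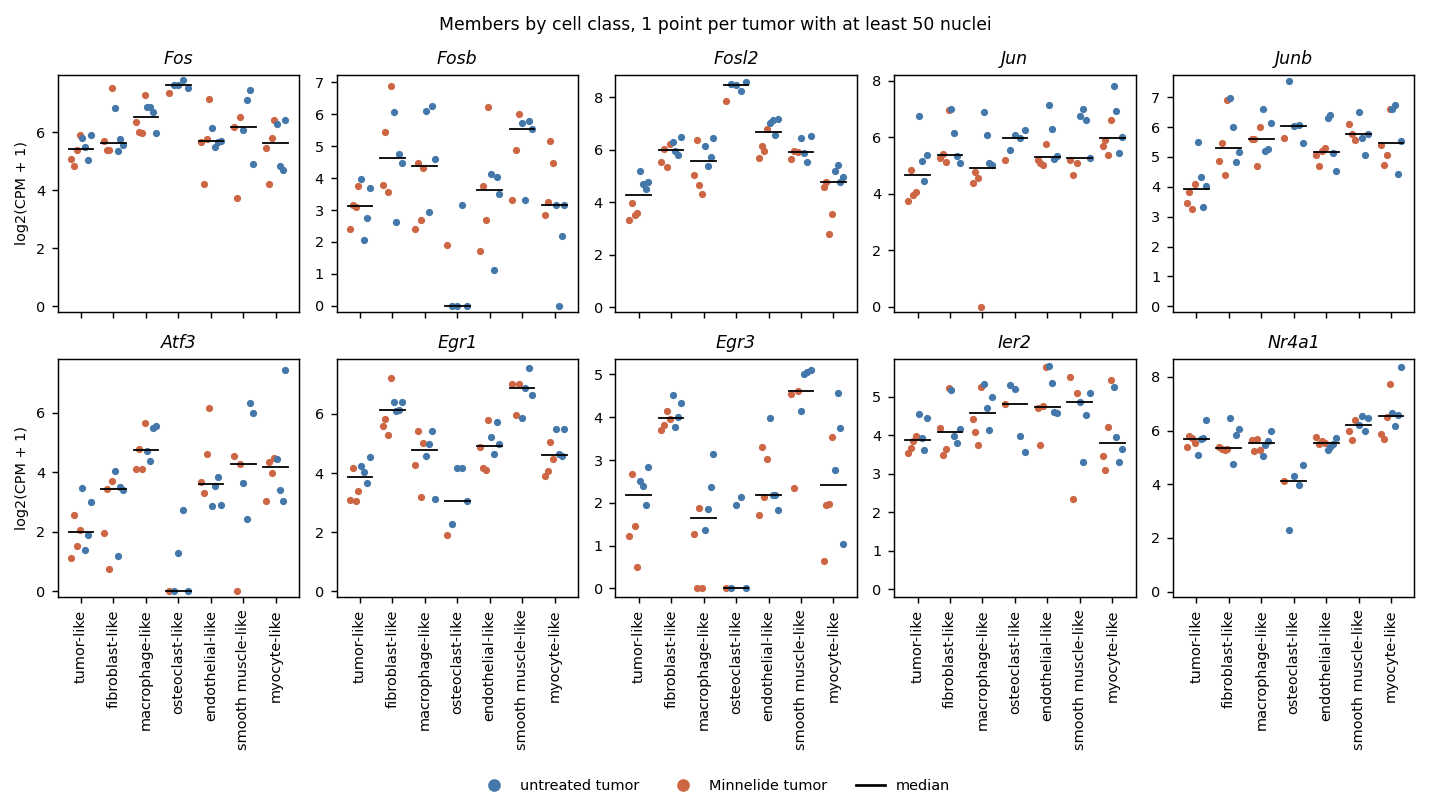
Level of each member as log2(CPM + 1) (y axis) by cell class (x axis), 1 point per tumor with at least 50 nuclei of that class, blue for untreated and orange for Minnelide tumors, with black lines for medians. Fosl2 and Fos stand highest in osteoclast-like nuclei, where Fosb, Egr3 and Atf3 have a median of 0 CPM, and Egr1 and Egr3 stand highest in smooth muscle-like nuclei.

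Of the Jun partners, Junb (chr8:85701113-85705359, - strand) was lowest in tumor-like nuclei in 8 of 8 tumors. Its tumor-like median was 14.2 CPM, against 34.9 CPM in endothelial-like, 38.8 in fibroblast-like, 43.4 in myocyte-like, 47.3 in macrophage-like, 52.9 in smooth muscle-like and 64.5 in osteoclast-like nuclei. The 6 log2 differences ran from -2.0 ± 0.27 against osteoclast-like to -1.49 ± 0.21 against endothelial-like nuclei, and all passed the test. Jun (chr4:94937271-94940459, - strand) was highest in myocyte-like nuclei in 4 of 8 tumors, and its tumor-like level was lower there by -1.49 ± 0.24 (edgeR adjusted p = 1.2e-06). Jun was also lower in tumor-like than in fibroblast-like nuclei, by -0.99 ± 0.23, and than in smooth muscle-like nuclei, by -1.08 ± 0.29. The smooth muscle call was lost without untreated tumor 3, at -0.79 (adjusted p = 0.052). Against macrophage-like and osteoclast-like nuclei its differences of -0.28 ± 0.27 and -0.69 ± 0.32 did not pass. Atf3, the stress-response factor, had a tumor-like median of 2.94 CPM against 25.8 in macrophage-like, 18.4 in smooth muscle-like, 17.1 in myocyte-like and 11.2 in endothelial-like nuclei, and each of these differences passed, from -2.92 ± 0.49 to -2.37 ± 0.50.

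The zinc finger genes stood highest in mural and stromal nuclei. Egr1 was highest in smooth muscle-like nuclei in 6 tumors and in fibroblast-like nuclei in the other 2. Its smooth muscle-like level ran from 57.8 to 188 CPM and its tumor-like level from 7.35 to 22.5 CPM, a log2 difference of -3.14 ± 0.28 (edgeR adjusted p = 2.7e-12). Egr3 was highest in the same classes, in smooth muscle-like nuclei in 5 tumors and in fibroblast-like nuclei in 3. Its tumor-like level was lower by -2.84 ± 0.44 than in smooth muscle-like and by -2.38 ± 0.34 than in fibroblast-like nuclei. Fibroblast-like and smooth muscle-like nuclei themselves differed by -0.75 ± 0.27 for Egr1 (edgeR adjusted p = 0.052) and by -0.46 ± 0.42 for Egr3 (edgeR adjusted p = 0.57), so that order is not set. Egr1 was also lower in tumor-like than in macrophage-like nuclei by -0.80 ± 0.31 (edgeR adjusted p = 0.037), and this call was lost in 5 of 8 fits that left out 1 tumor, with adjusted p from 0.052 to 0.12 in those 5. The fits that lost it were those without untreated tumor 2 or 3 or without Minnelide tumor 1, 2 or 4.

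Nr4a1 (chr15:101151980-101172681, + strand) encodes the nuclear receptor and did not follow the AP-1 genes. It was highest in myocyte-like nuclei in 5 of 8 tumors, with a median of 92.2 CPM, and lowest in osteoclast-like nuclei in all 5 tumors with such nuclei, at 3.87 to 25.3 CPM. The tumor-like median was 51 CPM, lower than in myocyte-like nuclei by -1.18 ± 0.22 (edgeR adjusted p = 1.2e-05) and higher than in osteoclast-like nuclei by 1.79 ± 0.37 (edgeR adjusted p = 7.6e-05). Over the 52 tumor-by-class sums Nr4a1 and Fosl2 had a Pearson r of -0.555 in log2(CPM + 1), the lowest of the 45 pairs. The highest was 0.71, between Egr1 and Egr3. These sums share libraries and depth, and the coefficients are descriptions. Ier2 had medians from 13.1 to 28.3 CPM over the 7 classes, and its tumor-like level passed the test only against endothelial-like (-1.04 ± 0.19) and smooth muscle-like nuclei (-0.85 ± 0.25). Without Minnelide tumor 1 the smooth muscle call of Ier2 was lost, at -0.54 (adjusted p = 0.14).

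Detection per nucleus was low. With every nucleus thinned to 1000 UMIs, Fosl2 had a UMI in 34% of osteoclast-like nuclei of untreated tumor 1 (17 of 50, 95% exact binomial interval 21.2% to 48.8%) and in 18.4% of those of Minnelide tumor 4 (14 of 76, 10.45% to 29%). In tumor-like nuclei Fosl2 had a UMI in 3.68%, 3.02%, 1.79% and 2.13% of nuclei of untreated tumors 1 to 4 and in 1.34%, 1.21%, 1.29% and 0.976% of Minnelide tumors 1 to 4. The groups did not overlap in this share. Untreated tumor 4 lost 5840 of its 8417 tumor-like nuclei to the thinning, and no other tumor lost over 388. Unthinned, the Fosl2 shares were 24.8%, 15.8%, 6.19% and 3.21% against 5.71%, 4.24%, 4.22% and 4.03%, and the groups overlapped. Fosb, 1 of the 3 members with a median of 0 CPM in osteoclast-like nuclei, had a UMI in 0% to 1.32% of them at 1000 UMIs. Free RNA was not measured, and its part in these shares was not tested. The intervals cover counting error only.

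After Minnelide most members stood lower over all nuclei, and none passed the adjusted test. Over all retained nuclei Fosl2 stood at 44.8, 44.7, 49.4 and 47.7 CPM in untreated tumors 1 to 4 and at 15.3, 33.2, 18.3 and 26.1 CPM in Minnelide tumors 1 to 4. All Minnelide tumors lay below all untreated tumors. The log2 fold change was -0.86 ± 0.26 (edgeR adjusted p = 0.48). Egr3 stood at 6.76, 4.87, 8.44 and 7.3 CPM against 2.36, 4.58, 3.42 and 2.07 CPM, also without overlap, with a log2 fold change of -0.99 ± 0.34 (edgeR adjusted p = 0.48). Egr1 stood at 28.9, 23.7, 40 and 34 CPM against 12.6, 21, 12.4 and 22.6 CPM, again without overlap, with a log2 fold change of -0.75 ± 0.29 (edgeR adjusted p = 0.49). Without the mitochondrial filter Egr1 had -0.66 and the groups overlapped. Thus 3 of 10 members were lower without overlap, where 6.92% of the 13813 genes tested were. The number called at an adjusted p under 0.05 by edgeR was 0 of 10 members and 0% of all genes. By edgeR 1333 genes had an unadjusted p below 0.05. By DESeq2 200 genes (1.36%) were called, none of them a member. Here and in each sum, fewer nuclei of a type and less RNA per nucleus cannot be told apart. Tumor-like nuclei numbered 3323 of 8979, 879 of 4897, 3345 of 6545 and 8417 of 10368 in untreated tumors 1 to 4. In Minnelide tumors 1 to 4 they numbered 6990 of 9312, 1510 of 6820, 7038 of 8516 and 3599 of 4470. Osteoclast-like nuclei numbered 50, 145, 224 and 94 against 36, 38, 45 and 77. The part of cell makeup in the differences over all nuclei was not tested.

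In tumor-like nuclei Fosl2 alone of the 10 members was lower without overlap, where 6.99% of the 12919 genes tested were. It stood at 35.3, 24.5, 21.5 and 26.2 CPM in untreated tumors 1 to 4 and at 9, 14.7, 10.5 and 10.9 CPM in Minnelide tumors 1 to 4, means of 26.9 ± 5.95 and 11.3 ± 2.42 CPM (SD). The lowest untreated tumor was above the highest Minnelide tumor. The log2 fold change was -1.12 ± 0.20, the edgeR adjusted p was 0.37 and the unadjusted p 0.00039. DESeq2, the alternative test, called Fosl2 at -1.13 ± 0.20 (adjusted p = 7.24e-05) among 320 genes called (2.24% of those tested). Over all alternatives run the log2 fold change of Fosl2 stayed between -1.27 and -1.02 and the groups did not overlap, while the edgeR adjusted p ranged from 0.261 to 0.675. Without untreated tumor 1 it was -1.02 ± 0.19 (edgeR adjusted p = 0.26). In the same tumor-like sums the 10 osteoclast markers came to 375.7 to 1153 CPM in untreated and 293.5 to 572.9 CPM in Minnelide tumors, and the 10 endothelial markers to 606.2 to 3635 and 446.4 to 869.5 CPM. These are classes in which Fosl2 was high, and their part in the Fosl2 difference was not tested.

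**Figure D3:**
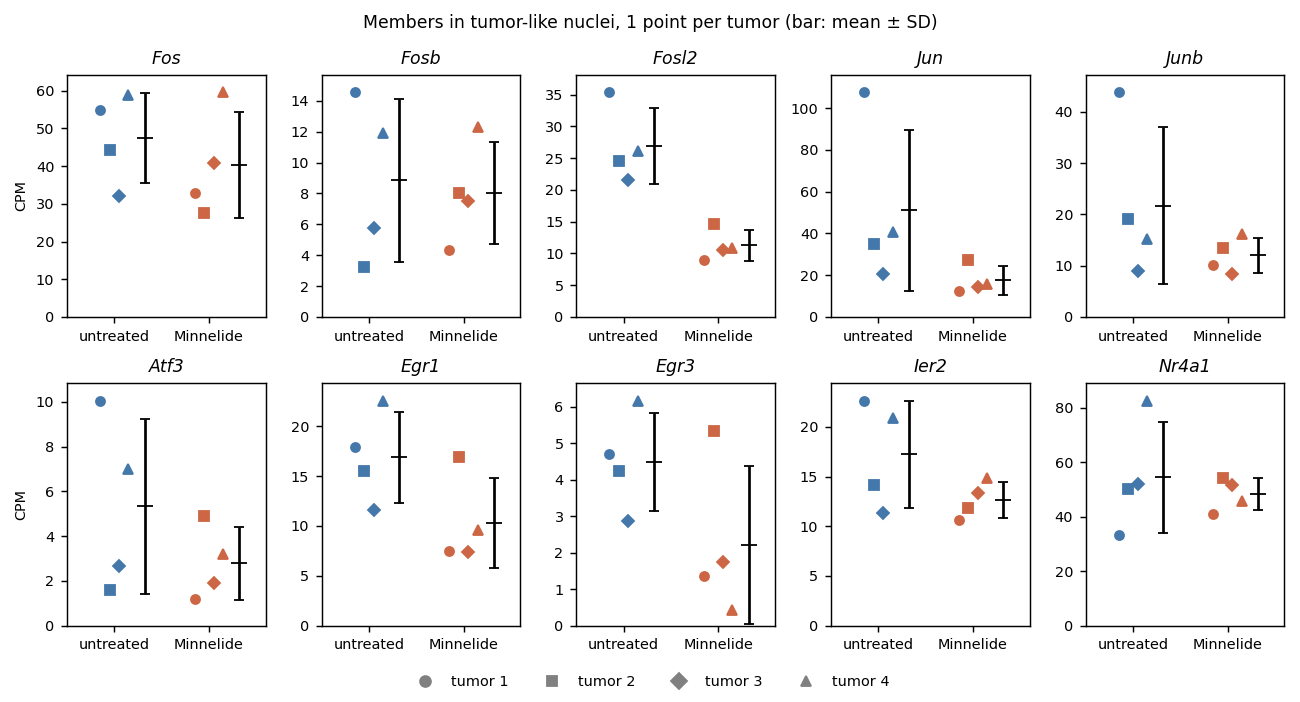
CPM of each member in tumor-like nuclei (y axis), 1 point per tumor with a shape for its number, which pairs nothing, and a bar for the mean ± SD of the 4 tumors. Only for Fosl2 do all Minnelide tumors (9 to 14.7 CPM) lie below all untreated tumors (21.5 to 35.3 CPM).

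Jun had the largest fold change of the 10 in tumor-like nuclei and rested in part on untreated tumor 1. It stood at 107 CPM in untreated tumor 1, 35.2, 20.8 and 40.6 CPM in the other untreated tumors, and 12.3, 27.4, 14.4 and 15.9 CPM in Minnelide tumors 1 to 4. The groups overlapped, since Minnelide tumor 2 was above untreated tumor 3. The log2 fold change was -1.37 ± 0.46 (edgeR adjusted p = 0.37). It was -0.81 ± 0.32 without untreated tumor 1 (edgeR adjusted p = 0.41). It was -0.50 ± 0.36 (edgeR adjusted p = 0.80) when tumor-like clusters with raised endothelial markers were left out. That removed untreated tumor 1 and Minnelide tumor 4 from the fit. It also cut the tumor-like nuclei of untreated tumors 2, 3 and 4 from 879, 3345 and 8417 to 183, 3010 and 2070. Minnelide tumors 1 to 3 kept 6981 of 6990, 1486 of 1510 and 7034 of 7038. In untreated tumor 1 the marker and heat shock sums given above also stood apart. The 10 myocyte markers, of a class in which Jun was high, summed in tumor-like nuclei to 6435, 961.6, 2516 and 5377 CPM in untreated tumors 1 to 4 and to 939.7, 5661, 435.5 and 727.3 CPM in Minnelide tumors 1 to 4. Untreated tumors 1 and 4 and Minnelide tumor 2, with the highest sums, also had the highest Jun levels of their groups. The other tumors did not keep this order. Untreated tumor 3 had a higher sum than untreated tumor 2 and a lower Jun level. Minnelide tumor 1 had a higher sum than Minnelide tumors 3 and 4 and the lowest Jun level. The part of these markers in the Jun and Junb values was not tested. Junb stood at 43.8, 19.1, 8.9 and 15.1 CPM against 10.1, 13.3, 8.46 and 16.1 CPM, with -0.68 ± 0.43. Without untreated tumor 1 the Junb value was -0.17, and without those clusters it was 0.04.

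The other members overlapped between the groups in tumor-like nuclei. Egr3 had log2 fold changes of -1.0 ± 0.67 and Egr1 of -0.60 ± 0.33. Minnelide tumor 2 was the highest Minnelide tumor for both, at 5.34 CPM for Egr3 and 16.9 CPM for Egr1, and without it the values were -1.79 and -0.92 with no overlap. Atf3 had -0.83 ± 0.64 and Ier2 -0.30 ± 0.23. Fos (-0.10 ± 0.27), Nr4a1 (-0.07 ± 0.29) and Fosb (0.01 ± 0.49) lay near 0, and each changed sign when single tumors were left out. Thus 1 of 10 members was lower without overlap, where 6.99% of the 12919 genes tested were, and edgeR called 0 of 10 members and 0% of genes. At an unadjusted p under 0.05 edgeR counted 1517 genes. The members' median log2 fold change was -0.64, against -0.01 over all genes tested, and 9 of 10 members were negative, against 51% of all genes. The members were chosen with these results known, so these counts describe the list.

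**Figure D4:**
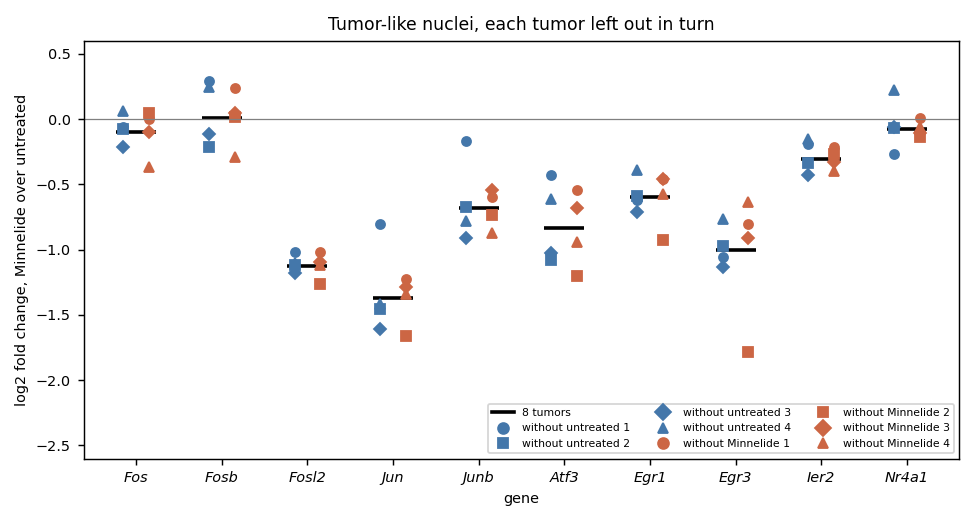
Log2 fold change of each member in tumor-like nuclei (y axis) with all 8 tumors (black line) and with each tumor left out in turn (points, blue for an untreated and orange for a Minnelide tumor left out). Fosl2 stays between -1.27 and -1.02, while Jun moves to -0.81 without untreated tumor 1 and Fos, Fosb and Nr4a1 cross 0.

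Among nuclei thinned to 1000 UMIs, 29.3%, 16.9%, 15% and 22.1% of tumor-like nuclei of untreated tumors 1 to 4 had a UMI of at least 1 member, against 14.6%, 17.2%, 16% and 16% of those of Minnelide tumors 1 to 4. The groups overlapped. Nuclei with UMIs of 3 or more members made up at most 0.604% of any tumor, in untreated tumor 1. Members were thus mostly seen singly at this depth. Jun and Nr4a1, named after their values were seen, were found together in 50 nuclei, and the share with Nr4a1 was higher among nuclei with Jun than among those without in 7 of 8 tumors.

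Outside tumor-like nuclei the drug comparison gave 0 members called by edgeR in every class, and edgeR called 0% of genes in the fibroblast-like, macrophage-like, endothelial-like, smooth muscle-like and myocyte-like fits. Genes with an unadjusted p below 0.05 numbered 579, 567, 1050, 262 and 1062 in these fits. By DESeq2 13, 1, 40, 1 and 93 genes were called. In macrophage-like nuclei Jun stood at 117, 67.5, 33.2 and 31.2 CPM in untreated tumors 1 to 4 and at 19.9, 26.5, 22.5 and 0 CPM in Minnelide tumors 1 to 4, the last being 0 UMIs in 78 nuclei. It was lower without overlap, as 2.34% of 8150 genes were, with a log2 fold change of -1.72 ± 0.52 (edgeR adjusted p = 0.67), and -1.20 ± 0.46 without untreated tumor 1. In smooth muscle-like nuclei Jun stood at 107, 129, 97.3 and 37.4 CPM against 35.9, 24.4 and 33.4 CPM in Minnelide tumors 1 to 3, since Minnelide tumor 4 had 14 such nuclei. It was again lower without overlap, as 2.58% of 7100 genes were, with -1.53 ± 0.40 (edgeR adjusted p = 1). The 2 untreated and Minnelide tumors nearest each other there, at 37.4 and 35.9 CPM, rest on 9 and 16 UMIs.

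The remaining classes overlapped for every member tested. In fibroblast-like nuclei 0 of 10 members were lower without overlap (2.37% of all genes), in endothelial-like nuclei 0 of 9 (4.2%) and in myocyte-like nuclei 0 of 10 (1.91%). With the myocyte-like clusters of raised tumor markers left out, 9 members were negative and edgeR called 0, as with them. Egr3 did not pass the filter on low counts in macrophage-like and endothelial-like nuclei, nor did Atf3 in smooth muscle-like nuclei. Endothelial-like nuclei had Fosl2 at 129, 140, 92.2 and 141 CPM against 50.8, 69.8, 60.7 and 110 CPM, with -0.76 ± 0.26 (edgeR adjusted p = 0.41). Minnelide tumor 4 was the tumor that overlapped. The same tumor was high for several members in endothelial-like and fibroblast-like nuclei. Its fibroblast-like nuclei had Fos at 186 CPM against 41.2 to 50.7 CPM in the other Minnelide tumors, Jun at 125 against 33.8 to 41.9 CPM and Egr1 at 149 against 37.9 to 55.6 CPM. Atf3 in endothelial-like nuclei was higher after Minnelide, at 11.8, 8.84, 23.5 and 70.4 CPM against 6.27, 10.7, 13.3 and 6.42 CPM, and overlapped, with 1.59 ± 0.68 (edgeR adjusted p = 0.45). In macrophage-like nuclei Fosb stood at 67.7, 6.62, 74.8 and 23.4 CPM against 4.27, 21.2, 5.39 and 18.7 CPM, with -2.25 ± 0.79 (edgeR adjusted p = 0.67).

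**Figure D5:**
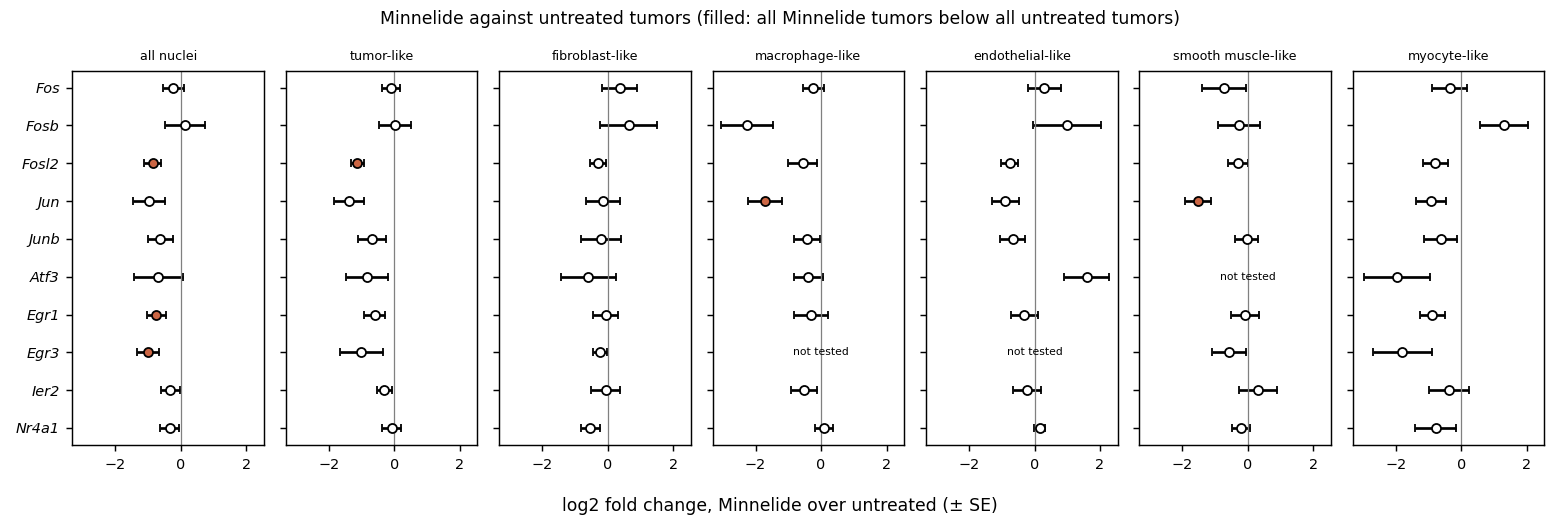
Log2 fold change of each member between Minnelide and untreated tumors (x axis, ± SE) over all nuclei and in 6 cell classes, from edgeR on UMI sums, filled where all Minnelide tumors lie below all untreated tumors. Filled points are Fosl2, Egr1 and Egr3 over all nuclei, Fosl2 in tumor-like nuclei, and Jun in macrophage-like and smooth muscle-like nuclei, and no point passed an adjusted p of 0.05.

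Whether the drug difference was itself different between classes was tested with the tumor as a block. For Fosl2 the tumor-like minus fibroblast-like difference of the log2 fold changes was -0.81 ± 0.20 (edgeR adjusted p = 0.70) and for Jun it was -1.06 ± 0.46 (edgeR adjusted p = 0.77). In that test 0 of 10 members were called, and 1 gene of 13427, or 0.00745%, was. Against macrophage-like nuclei Fosb had 1.99 ± 0.59 (edgeR adjusted p = 0.48), and against endothelial-like nuclei Atf3 had -2.22 ± 0.90 (edgeR adjusted p = 0.87). Both tests called 0% of genes, and 852 and 712 genes had an unadjusted p below 0.05. DESeq2 called 0 genes in all 3 comparisons, but its fit had no tumor block and so left out the pairing of classes within tumors. A drug difference particular to tumor-like nuclei was therefore not shown for any member.

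The genes around the members were read from fixed lists in the tumor-like fit, in which edgeR called 0 of them. Those named are the 2 of each list with the smallest unadjusted p in this same fit, so their lack of overlap is no support. Lower without overlap were 3 of 22 other immediate early genes and 3 of 14 other AP-1 genes, where 6.99% of all genes tested were. Of the other immediate early genes 22 of 25 were tested and 19 were negative, with a median log2 fold change of -0.565. Hes1, a Notch target, stood at 39.9, 13, 10.9 and 20.9 CPM against 8.31, 7.56, 8.59 and 7.66 CPM, with -1.23 ± 0.35, and Klf10, a TGF-beta response gene, had -1.40 ± 0.44. Both were lower without overlap. Untreated tumor 1 was the high tumor for both, with Klf10 at 96 CPM against 19.8 to 27.3 CPM in the other untreated tumors. Without it Hes1 had -0.80 ± 0.22 and Klf10 -0.70 ± 0.15. Of the other AP-1 genes 14 of 15 were tested and 10 were negative, with a median of -0.235. Jdp2, an AP-1 repressor, had -0.72 ± 0.21 and Maf had -1.49 ± 0.43, both without overlap. Maf stood at 104 CPM in untreated tumor 1 and at 27.7 to 37.1 CPM in the other untreated tumors, and without that tumor its value was -0.98 ± 0.30. All 4 genes had an edgeR adjusted p of 0.37. Jdp2 was also among the leading genes of the osteoclast-like cluster. In the tumor-like sums the macrophage markers came to 794.1, 467.1, 220 and 296.8 CPM in untreated tumors 1 to 4. In Minnelide tumors 1 to 4 they came to 214.9, 269, 268.8 and 200.5 CPM. The part of other cell types in the values of the genes named from the lists was not tested.

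The signaling inputs were split in direction. Of the ternary complex, CREB and kinase genes 21 of 25 were measured and 9 were negative, with a median of 0.06. Elk3, a ternary complex factor, stood at 215, 214, 229 and 204 CPM against 171, 149, 159 and 141 CPM, with -0.36 ± 0.12 and no overlap. Srf, the serum response factor, had -0.56 ± 0.24 and no overlap, at 5.01 to 7.09 CPM against 3.18 to 4.45 CPM. Of the feedback and mRNA decay genes 16 were tested and 11 were negative, with a median of -0.52. Spry2, an inhibitor of growth factor signaling, had -0.53 ± 0.18 and Zfp36l2, which promotes mRNA decay, had -0.90 ± 0.31, both without overlap, and without untreated tumor 1 Zfp36l2 had -0.51 ± 0.20. Of the reported AP-1 and EGR targets 14 were tested and 8 were negative, with a median of -0.55. Hmox1, heme oxygenase, had -1.91 ± 0.62 without overlap, at 40 CPM in untreated tumor 1 and 4.45 to 12.3 CPM in the other untreated tumors against 3.04 to 4.37 CPM. Osmr had -1.60 ± 0.53 with overlap, and untreated tumor 1 was again high at 191 CPM against 28.6 to 51.9 CPM in the other untreated tumors. Without that tumor Hmox1 had -0.96 ± 0.35 and Osmr -0.78 ± 0.25. Of 10 heat shock genes 7 were negative, with a median of -0.24, and those named by the rule were Bag3 (-0.70 ± 0.26) and Hspd1 (0.35 ± 0.18). For these 8 genes the edgeR adjusted p lay between 0.37 and 0.47. They too were picked by the smallest unadjusted p in this fit. Lower without overlap were 3 of 21 inputs, 2 of 16 feedback and decay genes, 1 of 14 targets and 0 of 10 heat shock genes, where 6.99% of all genes tested were.

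Outside all lists, the genes whose log2(CPM + 1) followed the members' mean most closely over the 52 tumor-by-class sums included Coq10b (Pearson r 0.71), Cnrip1, Errfi1, Wdr1, Atp11a, Lats2, Pdlim5, Il6st and Zcchc24 (0.66). These values describe a shared pattern over classes and tumors that share libraries and depth.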

How the data were processed

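Nuclei from 8 tumors were profiled by droplet snRNA-seq. The authors deposited 1 matrix of raw UMI counts per tumor, 4 for each group, with 19059 features in each. The file headers name Cell Ranger 9.0.1, while the submitters' processing notes name Cell Ranger 7.0.1, bcl2fastq 2.20 and mm39. The features are nearly all protein-coding genes without ribosomal protein genes, so the gene set that was counted is not settled. Each matrix was taken as 1 tumor because the series states 4 tumors per group, and tumor numbers are names that pair nothing. Response words in file names were not used. No other per-sample columns were left unused.

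Nuclei with under 200 genes, nuclei in the high mitochondrial component of a mixture model of mitochondrial share against genes detected (posterior over 0.75) and the nuclei with the highest Scrublet scores, at 0.8% per 1000 nuclei loaded in the matrix, were removed. Between 18487409 and 73211599 UMIs per tumor set the precision, and intervals cover counting error only. Clustering used scanpy 1.11.5 (2000 variable genes, 30 components, 40 neighbors, Leiden resolution 1) without members, lists or markers. Clusters were named where at least 3 markers were raised 1.5 times. No cluster took the pericyte name, so smooth muscle-like nuclei stand in its place.

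UMIs were summed per tumor and class (at least 50 nuclei) and tested with edgeR 4.0.16 (quasi-likelihood, TMM, filterByExpr, Benjamini-Hochberg over all genes tested, R 4.3.3), with the tumor as a block between classes. DESeq2 1.42.0 was an alternative. Other alternatives were RLE normalization, no low-count filter, other filters and resolution, stricter naming, thinning to 500 UMIs and leaving out each tumor. The scripts were tested on simulated data. Members and lists were chosen with earlier results of these data known. Genes named were all members, the 2 genes of each list with the smallest unadjusted p in tumor-like nuclei, and the 10 genes most correlated with the members' mean, of which 1 is not reported here. Tumors are taken as separate animals only as far as the series says so.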

Additional observations from a re-analysis of the deposited data

Results flagged for a closer look

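Of 140 groups of tumors examined for 1 tumor far from the others, 13 were singled out by the ratio of its gap to the group's range. Chance would single out about 1 in 20 if the values were independent and normally distributed, which was not tested. The sums over all nuclei contain those of the classes, and some values rest on few UMIs, so that rate is a rough guide only. Over all nuclei, Jun stood at 128.2 CPM in untreated tumor 1 against 33.22 to 48.19 CPM in the other untreated tumors, and Nr4a1 at 106.6 CPM in untreated tumor 4 against 48.86 to 54.57 CPM. Untreated tumor 4 was also high in myocyte-like nuclei, with Nr4a1 at 325.4 CPM against 71.05 to 98.97 CPM and Atf3 at 171.9 CPM against 7.118 to 21.09 CPM.

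Minnelide tumor 4 was the high tumor of its group in 5 cases. Its fibroblast-like nuclei had Fos at 185.8 CPM against 41.17 to 50.67 CPM, Jun at 125 CPM against 33.77 to 41.86 CPM and Egr1 at 149 CPM against 37.87 to 55.58 CPM. Its endothelial-like nuclei had Fosb at 74.51 CPM against 2.268 to 12.37 CPM and Jun at 53.07 CPM against 31.81 to 35.38 CPM.

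Untreated tumor 1 had Egr3 at 14.9 CPM in endothelial-like nuclei against 2.569 to 3.567 CPM, and at 16.69 CPM in smooth muscle-like nuclei against 31.12 to 33.21 CPM, where it was the low tumor. Its osteoclast-like nuclei, 50 in all, had Junb at 185.6 CPM against 43.34 to 65.63 CPM. Fosb in osteoclast-like nuclei stood at 7.921 CPM in untreated tumor 3 and at 0 CPM in the other untreated tumors.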

How the results depend on the processing

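Of 1343 values recomputed, 1277 stayed the same by the rule for their kind. A fold change had to keep its sign and its side of the threshold. A count had to stay within 1.5 times the main count, and a difference in share had to move by less than the pooled SD of the tumors. With DESeq2 in place of edgeR, the genes called between treatment groups went from 0 to 200 over all nuclei, 320 in tumor-like, 13 in fibroblast-like, 1 in macrophage-like, 40 in endothelial-like, 1 in smooth muscle-like and 93 in myocyte-like nuclei. Of the members 1, Fosl2, was called in tumor-like nuclei (-1.13). For the tumor-like minus fibroblast-like difference in effect DESeq2, fitted without the tumor block, called 0 genes, where edgeR called 1. DESeq2 called 2 members rather than 1 as higher in tumor-like than osteoclast-like nuclei. Stricter naming left 2 members lower than in endothelial-like and 2 lower than in myocyte-like nuclei, from 6 each. Its tumor-like sums came from Minnelide tumors 1 and 3 only. With tumor-like clusters of raised endothelial markers left out, an alternative chosen after seeing the data, Junb turned to 0.040. The causes were not tested.

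Leaving out 1 tumor at a time gave 0 to 1 genes called over all nuclei (1 without Minnelide tumor 2). The fibroblast-like members with a negative fold change were 4 to 10 (5 without untreated tumor 1, 4 without Minnelide tumor 3). The genes called for the difference in effect were 0 to 1 against fibroblast-like, 0 to 94 against macrophage-like (94 without untreated tumor 3) and 0 to 1 against endothelial-like nuclei (1 without Minnelide tumor 2). Members higher than in osteoclast-like nuclei were 1 to 2 (2 without untreated tumor 3). Over all nuclei Fosb ran from -0.39 to 0.40, Atf3 from -1.36 to 0.036 and Nr4a1 from -0.50 to 0.040. In tumor-like nuclei Fos ran from -0.36 to 0.062, Fosb from -0.29 to 0.29 and Nr4a1 from -0.26 to 0.22. No paired analysis was possible because the tumors carry no replicate numbers in the labels. Osteoclast-like nuclei had no treatment fit, since 1 Minnelide tumor held at least 50 of them, and stricter naming left too few nuclei for a treatment fit outside endothelial-like and myocyte-like nuclei.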

Other observations

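A cluster of 2623 nuclei, 92.9% of them from untreated tumor 2, had all 10 tumor markers raised but stayed unnamed because osteoclast markers stood among its leading genes, and it entered no class. Over the 2438 nuclei of untreated tumor 2 in it the summed level was 18.6 CPM for Fosl2, 36.2 CPM for Jun, 56.9 CPM for Fos, 63.9 CPM for Nr4a1, 22.2 CPM for Junb, 11 CPM for Egr1 and 0.765 CPM for Egr3. With this cluster counted as tumor-like, the log2 fold change of Fosl2 in tumor-like nuclei was -1.08 ± 0.20.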
